A study of Homo sapiens with 12 samples.

Results

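This section describes 100 RNAs that were more abundant in RNA immunoprecipitated (IP) with an antibody to ADAR3 than in both controls of the same experiment. One control is IP with pre-immune serum, called serum IP below and pre-immune in the figures, and the other is input RNA. The members were chosen from the measured levels themselves. Levels were expressed as CPM, a gene's reads per 1000000 reads assigned to genes in its library, and averaged within groups. Of 24910 genes present in both deposited tables, 7624 had a mean of at least 20 CPM in ADAR3 IP. Every ADAR3 IP library lay above every serum IP library for 13.9% of these, above every input library for 34.5%, and above all libraries of both controls for 797, or 10.5%. Each of the 797 was scored by the smaller of its 2 log2 ratios, ADAR3 IP over serum IP and ADAR3 IP over input, with 0.1 CPM added to each mean. The 100 highest scores are the members, so their higher level in ADAR3 IP is a property of the choice and is described below without a test.

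The cells were U373-MG, an established human glioblastoma line, and the antibody recognised the ADAR3 protein that the cells make themselves. All 12 libraries came from this 1 line, without any other treatment named in the labels, and the 3 groups of 4 are ADAR3 IP, serum IP and input. Cells were crosslinked with ultraviolet light at 150 mJ/cm2, lysed and sonicated before IP, and ribosomal RNA was depleted from every sample. Input libraries started from a fixed amount of total RNA, and each IP library from whatever RNA had been recovered, so levels are shares of a library and not amounts of RNA. Nothing in the labels says whether replicates came from separate cultures.

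ADAR3, the product of the gene ADARB2, belongs to the adenosine deaminases acting on RNA. Its relatives ADAR1 and ADAR2 convert adenosine to inosine in double-stranded RNA. ADAR3 carries the same kind of double-stranded RNA-binding domains and also an arginine-rich stretch that binds single-stranded RNA, but no editing activity of its own is known. It is found mainly in the brain and can compete with its relatives for shared RNA targets. In RNA immunoprecipitation, RNAs bound to the protein are recovered with the antibody, pre-immune serum shows what sticks to serum and beads, and input shows how abundant each RNA was in the lysate.

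The deposited tables name genes by Ensembl ID alone, and none of the 31707 IDs could be matched to a symbol, since the reference of 59792 genes used here holds 0 Ensembl IDs. The members are therefore described by their values and by their rank in the score. The IDs of only 2 are printed, the member with the highest score and the member with the highest level in ADAR3 IP. Their symbols, RNA classes, positions and sequences, the level of the ADAR3 transcript itself and markers of the cell type were not analysed here. Read depth differed between the groups: 23999234 to 30156884 reads assigned to genes in ADAR3 IP, 1875461 to 4946149 in serum IP and 4873428 to 12772412 in input.

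The 100 members ranged widely in abundance. Their mean level in ADAR3 IP ran from 21.6 to 3204 CPM, with a median of 94.0 CPM and quartiles of 45.8 and 194 CPM. In serum IP the same RNAs had a median of 25.3 CPM and a range from 0.4996 to 478 CPM, and in input a median of 29.5 CPM and a range from 4.65 to 728 CPM. A level under 50 CPM in ADAR3 IP was seen for 28 members, compared with 42.3% of the 7624 genes. A level of at least 200 CPM was seen for 24 members, compared with 11.04% of those genes. The set thus holds both scarce and abundant RNAs. Its median member was more abundant in ADAR3 IP than the median of all 7624 genes, 58.3 CPM. The 697 genes that passed the separation but are not members had a higher median there, 143 CPM. In input the members' median was the lower, at 29.5 CPM against 61.9 CPM for all 7624 genes. The rule used the levels of all 3 groups, so these differences follow in part from the choice.

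The members lay above the controls by a modest factor in most cases. The ratio of ADAR3 IP over serum IP had a median of 3.21-fold and a range from 2.26-fold to 38.9-fold. Over input the median was 2.94-fold and the range 2.27-fold to 6.21-fold. At least 4-fold over serum IP was reached by 32 members, at least 4-fold over input by 20, and at least 4-fold over both by 10, which are all the genes among the 7624 that reach it. On the log2 scale the medians were 1.68 over serum IP and 1.55 over input, set beside 0.099 and 0.056 over all 7624 genes. The score was set by the ratio over input for 59 members and by the ratio over serum IP for the other 41. These values chose the members and support nothing further.

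**Figure D1:**
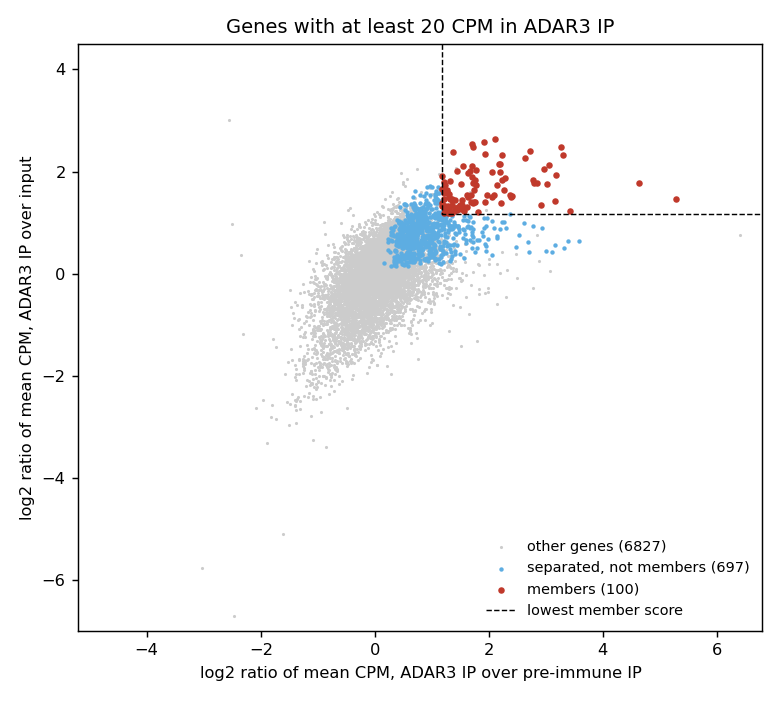
Each point is 1 of 7624 genes with at least 20 CPM in ADAR3 IP, placed by its log2 ratio of mean CPM over serum IP (x axis) and over input (y axis); 7 genes lie outside the axes. The 100 members (red) lie beyond the dashed line at the lowest member score, 1.18, on both axes, and the 697 other fully separated genes (blue) lie inside it on at least 1 axis.

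The score had no natural break at the 100th member. The members of rank 98, 99 and 100 scored 1.1814, 1.179 and 1.1774, and the genes of rank 101, 102 and 103, which are not members, scored 1.1772, 1.1742 and 1.166. At rank 100, the member had 46.4 CPM in ADAR3 IP, 20.5 CPM in serum IP and 17.7 CPM in input. The gene of rank 101 had 170 CPM, 74.3 CPM and 75.1 CPM in the same order. The 697 separated genes outside the set had a median score of 0.64, compared with 1.41 for the members, and were more abundant in input, at a median of 80.7 CPM.

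The highest score belonged to ENSG00000101347. Its level in the 4 ADAR3 IP libraries was 155, 209, 222 and 171 CPM. In serum IP it was 12.74, 33.3, 12.75 and 19.2 CPM, and in input 33.2, 30.9, 37.96 and 32.8 CPM. Each ADAR3 IP library stood far above all 8 control libraries, while serum IP and input values overlapped, since serum replicate 2 lay within the range of input. The means were 189 ± 31.5 CPM in ADAR3 IP, 19.5 ± 9.67 CPM in serum IP and 33.7 ± 3.00 CPM in input (SD, n = 4 each). From pooled reads, 20960 in ADAR3 IP and 248 in serum IP, each divided by its group's total, the ratio was 10.7 with a 95% exact interval of 9.46 to 12.2. Over input, with 1240 reads, it was 5.74 with an interval of 5.42 to 6.08. Such intervals cover the counting error of reads alone, and the spread between libraries comes on top. They also make no allowance for picking the gene by its score. The ratios of mean CPM that the rule used were 9.67-fold over serum IP and 5.61-fold over input.

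The most abundant member in ADAR3 IP was ENSG00000065978, of rank 8. It held 3002, 3119, 3040 and 3653 CPM in the 4 ADAR3 IP libraries. Serum IP held 372.8, 399.8, 475.5 and 287 CPM, and input 707, 771, 733 and 701 CPM. The 3 groups did not overlap, and serum IP was the lowest of them. Means were 3204 ± 304 CPM in ADAR3 IP, 384 ± 77.6 CPM in serum IP and 728 ± 31.7 CPM in input (SD, n = 4 each). The ratio of pooled reads was 7.98 over serum IP, with a 95% exact interval of 7.77 to 8.20, and 4.39 over input, with an interval of 4.33 to 4.44. The authors' deposited table gives a log2 fold change of ADAR3 IP over serum IP of 3.20 for ENSG00000101347 and 2.98 for ENSG00000065978.

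Of the other members of high level, the member of rank 4 had 2105, 2187, 1987 and 2562 CPM in ADAR3 IP. In serum IP its mean was 354 ± 62.7 CPM and in input 457 ± 29.9 CPM (SD, n = 4 each). Its ratio was 6.25-fold over serum IP, below the 8.34-fold of ENSG00000065978, and 4.84-fold over input, above the 4.3995-fold of that gene. At rank 23, a member had 1418, 1750.2, 1733 and 1590.5 CPM in ADAR3 IP. Its mean was 478 ± 83.2 CPM in serum IP and 456 ± 24.2 CPM in input, levels that differed by less than the spread between serum libraries. These and ENSG00000065978 were the 3 most abundant members. Together they took 0.704% ± 0.0557 of reads in ADAR3 IP, 0.122% ± 0.0189 in serum IP and 0.164% ± 0.00548 in input (SD, n = 4 each). They made up 28.6% ± 0.892 of the reads of all 100 members in ADAR3 IP.

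All 100 members together took 2.46% ± 0.121 of reads in ADAR3 IP, 0.684% ± 0.0688 in serum IP and 0.718% ± 0.00972 in input (SD, n = 4 each). In single libraries the share ran from 2.33% to 2.62% in ADAR3 IP, from 0.634% to 0.785% in serum IP and from 0.705% to 0.728% in input. Serum IP and input shares overlapped. The rule places every ADAR3 IP library above all controls, so the counts and scores that follow only describe the set. Within ADAR3 IP, replicates 1, 2, 3 and 4 were the highest of the 4 for 20, 29, 19 and 32 members. With 1 ADAR3 IP library at a time set against the control means, the median score of the members was 1.41, 1.47, 1.41 and 1.51.

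**Figure D2:**
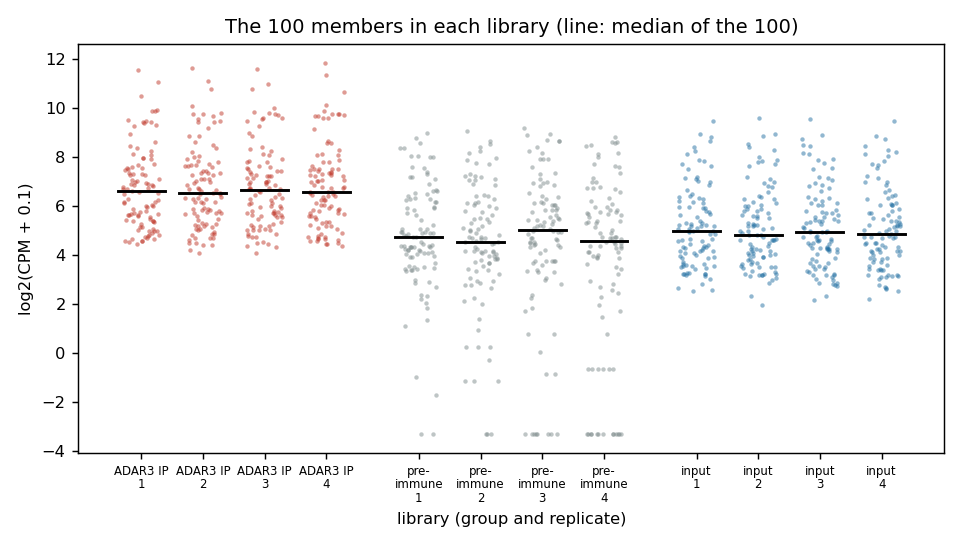
Each point is 1 of the 100 members in 1 library, on a log2(CPM + 0.1) axis, with the 4 libraries of each group side by side and a line at the median. The medians of the ADAR3 IP libraries lie above those of all 8 control libraries, and some members fall to 0 reads, the lowest points, in serum libraries alone.

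The members' spread among ADAR3 IP libraries was limited in part by the rule, which needs each such library above all controls. The coefficient of variation of their CPM had a median of 12.5%, from 3.29% for the member of rank 76 to 40.5% for the member of rank 72. That of rank 76 had 70.2, 68.0, 66.6 and 65.0 CPM, nearly level across the 4 libraries. That of rank 72 had 38.3, 42.4, 61.6 and 89.8 CPM, with the highest library at over 2-fold the lowest. The median SD on the log2(CPM + 0.1) scale was 0.18 in ADAR3 IP, 0.93 in serum IP and 0.12 in input. Over all 7624 genes it was 0.17, 0.60 and 0.093, so the members' spread exceeded the typical gene's mainly in serum IP. Over the 697 other separated genes it was 0.13, 0.39 and 0.075, below the members in each group. The members were scarcer than all 7624 genes in both controls, which follows in part from the rule. Their median was 25.3 against 57.8 CPM in serum IP and 29.5 against 61.9 CPM in input. Whether level accounts for the spread was not tested.

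Part of the members rested on very few reads in serum IP. The median member had 353.5 reads over the 4 serum libraries, compared with 10389.5 in ADAR3 IP and 1091.5 in input. Under 100 pooled serum reads were found for 11 members and under 50 for 4. At least 1 serum library held 0 reads for 23 members, compared with 4.93% of the 7624 genes and with 30 of the 697 other separated genes. Low serum IP levels are part of the rule, so this difference is no finding about the members. The 0s fell on 26 pairs of member and library: 2 in serum replicate 1, 3 in replicate 2, 8 in replicate 3 and 13 in replicate 4, the shallowest. A level equal to that in input would have given 8.72 to 86.9 reads in those libraries, with a median of 29.1. The 23 had a median score of 1.51, close to the 1.40 of the 77 members with reads in every serum library.

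The largest difference between IP and serum was of this kind. The member of rank 47 had 23.5, 25.6, 22.2 and 21.4 CPM in ADAR3 IP. In serum IP it had 0.404, 0, 1.59 and 0 CPM, from 9 reads in all, and in input 7.99, 9.68, 6.77 and 8.86 CPM. Its ratio over serum IP was therefore 38.9-fold, while its ratio over input was 2.77-fold. The member of rank 58 was the reverse in its controls. It had 383, 464, 495 and 377 CPM in ADAR3 IP, 137, 158, 163 and 210 CPM in serum IP and 81.0, 80.8, 81.9 and 83.5 CPM in input, so that the 3 groups did not overlap and serum IP lay between the others.

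**Figure D3:**
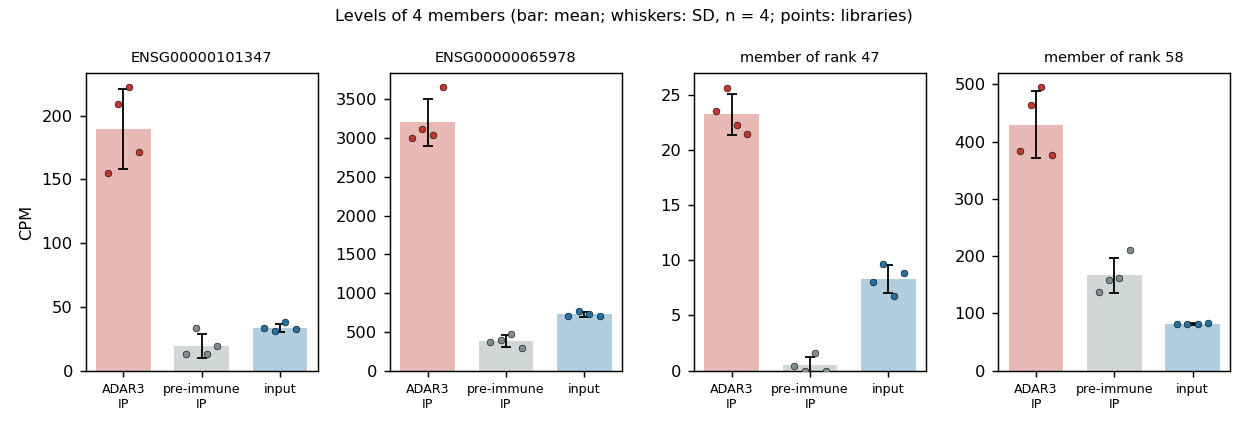
CPM (y axes from 0, each with its own scale) in ADAR3 IP, serum IP and input for 4 members: bars are means, whiskers the SD of 4 libraries and points single libraries. ADAR3 IP exceeds both controls in each panel, and the order of the controls differs between the member of rank 47, with 2 serum libraries at 0, and the member of rank 58.

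The rule did not rank on the difference between the controls. Serum IP had the lower mean for 59 members and input for 41. The log2 ratio of serum IP over input ran from -3.81 to 1.03 with a median of -0.087, next to a median of -0.066 over all 7624 genes and -0.064 over the 697 other separated genes. All 4 serum libraries lay below all 4 input libraries for 12 members, compared with 18.8% of the 7624 genes. They lay above all input libraries for 3 members, those of rank 34, 58 and 75, compared with 7.12%. For the other 85 members the controls overlapped. The count above input was 3 with all libraries and 6, 6, 6 and 7 without serum replicate 1, 2, 3 or 4, and the count below input was 19 without serum replicate 3. Leaving out a control library can only keep or raise such counts, since fewer libraries need to be separated. The rule caps both control levels below ADAR3 IP, so these counts were not tested. The deposited tables were normalized separately, but CPM does not use their size factors.

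**Figure D4:**
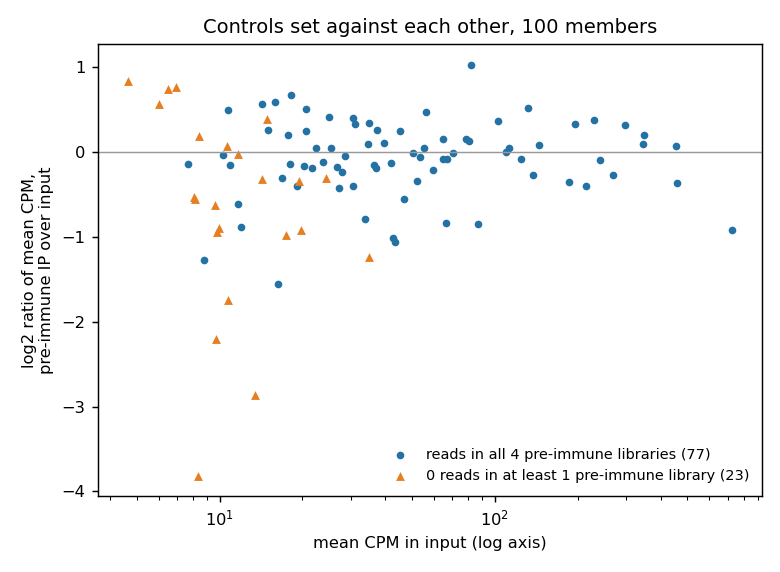
Each point is 1 member, placed by its mean CPM in input (log axis) and by the log2 ratio of mean CPM, serum IP over input. Members with 0 reads in a serum library (triangles, 23) all have at most 34.996 CPM in input, and the other 77 (circles) scatter around 0 with a median of -0.054.

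The choice was repeated 12 times, each time without 1 library, and the genes chosen were then described in the library left out. When an ADAR3 IP library was held out, 100 genes were chosen from the other 11 libraries, and the held-out library was then compared with the 8 control libraries. ADAR3 IP replicate 1 lay above all 8 for 97 of the 100 genes, replicate 2 for 100, replicate 3 for 100 and replicate 4 for 95. Among all genes with at least 20 CPM the same held for 17.2%, 17.8%, 18.1% and 18.1%. The median log2 ratio of the held-out library over the higher control mean was 1.399, 1.42, 1.41 and 1.48, compared with scores of 1.46, 1.43, 1.45 and 1.43 in the libraries that made the choice. The control libraries in this comparison are those that served in the choice. A high share therefore follows in part from the choice, and these values are a description and no test. The labels do not say whether a held-out library came from a separate culture.

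Held-out serum libraries gave smaller ratios than the serum libraries used in the choice. The rule favours genes that are low in the serum libraries used, so this drop follows in part from the choice. Of 100 genes chosen without serum replicate 1, 2, 3 or 4, that library lay below every ADAR3 IP library for 94, 96, 90 and 89. The share among all genes with at least 20 CPM was 47.0%, 48.6%, 41.5% and 51.6%. The median log2 ratio of ADAR3 IP over the held-out serum library was 1.54, 1.599, 1.299 and 1.59, below the 1.76, 1.699, 1.82 and 1.68 found in the 3 serum libraries used. For held-out input libraries all 100 genes lay below every ADAR3 IP library in each of the 4 cases, compared with 38.5%, 41.7%, 40.2% and 42.8% of all genes. The median log2 ratio over the held-out input library was 1.54 to 1.63, next to 1.55 to 1.59 in the input libraries used. Here the ADAR3 IP libraries had served in the choice, so these values too are a description.

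**Figure D5:**
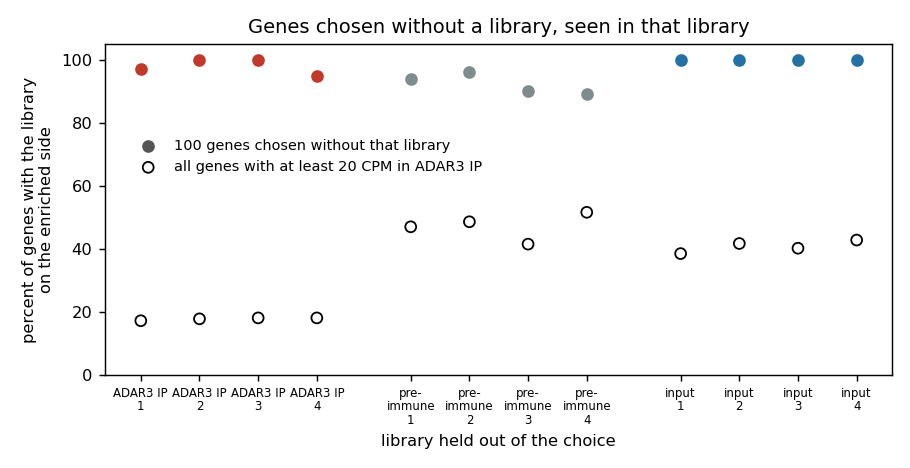
For each library held out of the choice (x axis), the filled point is the percent of the 100 genes chosen without it for which that library fell on the enriched side (above all controls for ADAR3 IP, below all ADAR3 IP libraries for a control). The open point is the same percent over all genes with at least 20 CPM in ADAR3 IP. Filled points lie between 89 and 100, open points between 17.2 and 51.6. The libraries that each held-out library is compared with had served in the choice.

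Membership itself depended on the serum libraries more than on the others. Leaving out an ADAR3 IP library kept 89 to 93 of the 100 members, leaving out an input library 96 to 99, and leaving out serum replicate 1, 2, 3 or 4 kept 88, 90, 84 and 83. In all 12 cases 64 members stayed in the set, among them the whole of the first 25 ranks and 49 of the first 50.

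The comparison of ADAR3 IP with serum IP was also fitted over all genes, with limma on log2(normalized count + 1). Of the 100 members 51 were called higher at a Benjamini-Hochberg adjusted p under 0.05, and 2.33% of the 11112 genes tested were. The members' fitted log2 fold changes ran from 1.15 to 6.15 with a median of 1.90, and the median over all genes tested was 0.25. At that threshold 72 members were higher in the authors' deposited table, as were 8.75% of the 17946 genes with an adjusted p. edgeR's quasi-likelihood test on recovered reads called 59 members, and 6.90% of 14470 genes. The rule used this contrast, so nothing is read from these counts, except that a member of the set need not pass a test: of the 23 members with 0 reads in a serum library, limma called 2. Without ADAR3 IP replicate 1, 2, 3 or 4, limma called 34, 30, 32 and 33 members. The count over all genes fell likewise, from 259 to 118, 108, 108 and 125. Without serum replicate 1, 2, 3 or 4, it called 53, 50, 53 and 64 members. The count over all genes then rose to 304, 306, 348 and 432. Why the directions differ was not tested.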

How the data were processed

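Gene levels were taken from 2 tables, 1 of 8 IP libraries (28556 genes) and 1 of 4 input libraries (28061 genes), with groups and replicate numbers taken from the titles. Per the submitters' processing notes, STAR 2.7.7a, featureCounts, DESeq2 and GRCh38 were used, with no role stated. Annotation and strand setting were not given in the sources used here. Overlapping, antisense and near-identical genes are therefore uncertain. Each deposited value is a signal scaled by the authors, a gene's count over its library's size factor: 100% of them were whole multiples of 1 read at a tolerance of 0.001 reads. Median-ratio factors recomputed within each table equalled those of the authors, so the tables were normalized separately and comparisons with input used CPM, without tests. The authors' deposited log2 fold changes and adjusted p-values cover ADAR3 IP over pre-immune IP.

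The contrast of the IPs was fitted with limma 3.58.1 (R 4.3.3) on log2(value + 1), with a variance trend, genes with a mean of at least 50 and Benjamini-Hochberg adjustment, and with edgeR 4.0.16 and DESeq2 1.42.0 on recovered reads. The code for the fit and for the choice of members was run on simulated data, as a check of the code alone. How reliable either is at the members' fold changes and serum IP spread was not tested. The members and the gene lists written for them were chosen with earlier results of these data known. The gene lists, marker lists and gene properties were not used, since no ID could be named, and the rule for named genes was limited to 2 IDs. Libraries are labelled polyA RNA although their protocol describes ribosomal RNA depletion, and they were amplified for 15 cycles, so reads are not independent molecules and intervals cover counting error only. Where replicates are not separate cultures, p-values reflect technical spread alone. Same-numbered ADAR3 IP and serum IP libraries deviated together at correlations of at most 0.0236 over 11112 genes, so the numbers were not taken to pair them. The spread of the shallow serum IP libraries could hide a pairing, and input libraries were not examined.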

Additional observations from a re-analysis of the deposited data

How the results depend on the processing

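Of the 100 members, 84 stayed at a minimum of 10 CPM, 72 at 50 CPM, 96 with TMM-scaled CPM, 89 with median-ratio size factors over the 12 libraries, 89 with group medians, 92 without full separation and at least 97 with a pseudocount of 0.01 or 1 CPM. Ranking on the ratio over serum IP alone kept 52 and over input alone 72. A set of 50 holds 50 of them and a set of 200 all, which the shared ranking makes certain. With every library thinned to 1875461 reads, chosen after seeing the data, 85 stayed, and 77 when genes with 0 reads in a serum library were left out, also chosen later. Leaving out 1 library kept 83 to 99. The 797 separated genes became 802 to 1075 without 1 library, 669 at 50 CPM, 674 with median-ratio size factors, 684 at equal depth, 744 without genes at 0 reads in a serum library, 796 to 900 in the remaining settings that keep the separation, and 7624 with it dropped. The median score of 1.41 ran from 1.39 to 1.46 over the settings. The score was 2.40 to 2.57 for ENSG00000101347 and 2.07 to 2.18 for ENSG00000065978. Members with serum IP below input numbered 12 to 19 and above input 3 to 7 without 1 library, 9 and 6 with median-ratio size factors, 8 and 4 at equal depth, and 12 and 3 with TMM-scaled CPM. Leaving out a control library can only keep or raise these counts and the number of separated genes, since fewer libraries need to be separated. The cause of the other changes was not tested.

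A fit with the replicate block called 56 members higher, compared with 51 without it, among 263 and 259 of all genes. The other settings with all libraries gave 48 to 72 members among 250 to 1571 genes (72 among 1571 with DESeq2), and leaving out 1 IP library 30 to 64 among 108 to 432. All 100 kept a positive fold change in every fit. Depth limits the members most in serum IP, where the median member had 44.5 to 141.5 reads per library. Gene property and gene list alternatives were not run.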

Other observations

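The rule needs a gene to be present in both tables. Of the 3646 genes present in the IP table alone, none reached 20 CPM in ADAR3 IP, the highest mean being 2.97 CPM, so no RNA of member level was passed over for want of an input value. In 16 sets of 4 values (the members' share of reads, the share of the 3 most abundant members, the median member level, the levels of the 2 printed genes and the median score), Dixon's test at the 95% level marked no library. With 4 values in a set only an extreme value can be marked, and the values are those of chosen genes. The result therefore says little about single libraries.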
